A study of Mus musculus with 54 samples.

Results

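The whole testis comparison of BORIS KO with WT mice rested on 6 of the 54 libraries of the series, 3 of each genotype, taken from the columns of the count table that carry these genotype names. BORIS KO mice were Ctcf(+/+)Boris(-/-) and WT mice were Ctcf(+/+)Boris(+/+), all C57BL/6 males at 3 months of age, with no further allele or treatment named for either group. Each library was made from a preparation enriched for germ cells by collagenase and then trypsin digestion, with the cells of 4 mice pooled, so single animals cannot be told apart and the 3 preparations of a genotype are the replicates. Ribosomal RNA was depleted, and single-end reads were counted per gene. A pair of other whole testis groups, CTCF HET, Ctcf(+/-)Boris(+/+), and CM, Ctcf(+/-)Boris(-/-), labelled DKO, differed in *Boris* in the same way but on a single functional copy of *Ctcf*, and supplied 6 libraries that the main comparison did not use. Sorted round spermatids, with 3 WT and 3 BORIS KO libraries, and spermatocytes, with 2 WT and 3 BORIS KO libraries, supplied the third and the fourth comparison; their RNA was poly(A)-selected, and they were elutriated and sorted rather than taken whole. The study describes a single *Boris* knockout, so none of these comparisons tests another *Boris* allele.

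CTCF is an 11-zinc-finger DNA-binding protein of nearly all cells that, together with cohesin, sets the borders of chromatin loops and acts at enhancers, promoters and imprinted regions. BORIS, encoded by *Ctcfl*, is its paralog, carries a closely similar zinc finger domain, and is made in male germ cells, where it occupies a part of the CTCF sites, many of them at promoters. Loss of BORIS alone leaves male mice able to breed, and the question put to these libraries was which transcripts of the testis depend on BORIS while both copies of *Ctcf* are intact.

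The 6 libraries held 42055813, 16521394 and 12081830 counts in WT replicates 1, 2 and 3, and 36401162, 11830194 and 17353273 counts in BORIS KO replicates 1, 2 and 3. Levels below are CPM, counts scaled to the library size with TMM factors, which are not corrected for gene length and are compared only within a gene. Replicate 1 stood apart from replicates 2 and 3 in both genotypes, in depth and in the direction in which its genes deviated. Deviations of libraries of the same number correlated at 0.6, 0.176 and 0.239. Pairing by number is not shown for replicates 2 and 3. BORIS KO 2 correlated more with WT 3 (0.379), and BORIS KO 3 with WT 2 (0.264). Results are therefore given from the edgeR fit without the replicate number. Where it changes the call, they are also given from the fit with the replicate number as a block, called the paired fit below. The count table held 17 of 18 Sertoli cell markers and 21 of 22 synapsis and recombination genes. Of the germ cell and somatic markers that it held, none was at 0 in all 6 libraries.

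*Ctcfl* was hardly counted in whole testis, with 18, 9 and 8 counts in WT and 7, 5 and 3 counts in BORIS KO. BORIS KO libraries thus held 40.8% of the WT level after adjustment for depth, with a 95% exact interval of 20.7% to 76.7% that covers counting error only, and the gene fell under the filter on low counts. A count over the whole gene does not show which exons the remaining reads came from, so these reads do not measure intact transcript. In round spermatids the *Ctcfl* level was 2.88, 5.26 and 3.47 CPM in WT and 2.11, 2.21 and 2.42 CPM in BORIS KO, a log2 difference of -0.78 ± 0.25 (SE; edgeR adjusted p = 0.0248). *Ctcf* was measured at 41.5, 39.2 and 41.1 CPM in WT and at 28.6, 37.5 and 33.4 CPM in BORIS KO. All 3 BORIS KO values lay under all 3 WT values, but the log2 difference of -0.29 ± 0.16 did not pass the test in either fit (edgeR adjusted p = 0.379, and 0.158 in the paired fit).

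Without the block, 9 of 16344 tested genes passed an adjusted p of 0.05 (0.0551%), 8 of them lower and 1 higher in BORIS KO, and 2717 had an unadjusted p below 0.05. With the block, 1077 genes passed (6.59%), of which 493 were higher (3.02%) and 584 lower (3.57%), and all 9 genes were among them. Of the 1077 genes, 273 (1.67%) differed more than 2-fold, 206 higher and 67 lower. DESeq2 without a block called 386 genes (2.36%), and 331 of these were also called in the paired fit. The number of calls depended on single libraries. Without the block it was 33 without WT replicate 1, 8 without WT replicate 2, 6 without WT replicate 3, 44 without BORIS KO replicate 1, 2 without BORIS KO replicate 2 and 0 without BORIS KO replicate 3, where the smallest adjusted p was 0.0859 and 1494 genes had an unadjusted p below 0.05. In the paired fit it was 1124, 358, 259, 871, 450 and 375 in the same order, and the 9 genes were called in each of these 6 fits. As a background for the statements on overlap, all 3 BORIS KO libraries lay below all 3 WT libraries in 10.0% of the tested genes and above them in 13.9%.

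Of the 9 genes, 6 lie on chromosome 14, which holds 3.61% of the tested genes with a position. Among these 6, *Gm2897*, *Gm10406* and *Gm5458* are predicted genes. *Gm10413*, a further predicted gene there, passed in the paired fit and by DESeq2, but not by edgeR without the block. These genes resemble each other in pairs in the bases before their starts. Their transcripts were not compared, so whether reads were split between copies was not tested, and values of a single copy are uncertain. The likeness within pairs is visible in the 250 bases before their annotated starts (RefSeq, GRCm38.p6, written in the direction of transcription), which are shown because these 4 genes carry the lower levels described next. Capitals mark the longest stretch shared without a mismatch within each pair, 17 bases between *Gm2897* and *Gm10406* and 65 bases between *Gm10413* and *Gm5458*. The windows lie at chr14:3049035-3049284 (+), chr14:7027450-7027699 (-), chr14:3394843-3395092 (+) and chr14:19602588-19602837 (-).
Gm2897: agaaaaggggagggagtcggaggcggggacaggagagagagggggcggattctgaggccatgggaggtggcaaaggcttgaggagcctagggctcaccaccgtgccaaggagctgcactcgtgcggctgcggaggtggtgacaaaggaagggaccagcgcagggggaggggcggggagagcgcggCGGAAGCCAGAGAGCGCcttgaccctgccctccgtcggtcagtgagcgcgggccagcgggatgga
Gm10406: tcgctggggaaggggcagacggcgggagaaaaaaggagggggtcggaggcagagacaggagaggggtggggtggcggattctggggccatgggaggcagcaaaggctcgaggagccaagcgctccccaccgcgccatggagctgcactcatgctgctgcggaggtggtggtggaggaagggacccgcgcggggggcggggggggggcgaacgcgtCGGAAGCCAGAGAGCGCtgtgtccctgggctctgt
Gm10413: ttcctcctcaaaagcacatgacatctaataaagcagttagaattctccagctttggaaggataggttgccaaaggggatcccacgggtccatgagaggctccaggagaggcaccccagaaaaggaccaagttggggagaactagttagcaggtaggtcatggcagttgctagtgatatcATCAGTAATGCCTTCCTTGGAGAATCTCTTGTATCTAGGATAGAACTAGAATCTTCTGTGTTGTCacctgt
Gm5458: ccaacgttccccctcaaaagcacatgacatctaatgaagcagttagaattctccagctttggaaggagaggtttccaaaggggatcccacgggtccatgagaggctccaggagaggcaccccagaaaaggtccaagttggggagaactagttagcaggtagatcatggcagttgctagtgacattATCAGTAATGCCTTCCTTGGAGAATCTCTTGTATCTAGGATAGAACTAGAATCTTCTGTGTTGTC
In a global alignment, 184 of 280 columns (65.7%) were identical between *Gm2897* and *Gm10406*, and 236 of 256 columns (92.2%) between *Gm10413* and *Gm5458*, whereas the 4 pairings across the pairs reached 42.6% to 47.8%.

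*Gm10406* had 21.1, 18.2 and 15.5 CPM in WT and 0.96, 0.31 and 1.19 CPM in BORIS KO. The groups did not overlap, and the gene was 21.1-fold lower (log2 -4.40 ± 0.37, edgeR adjusted p = 0.00891). Its annotated span (mm9, chr14:7568221-8002264, minus strand) overlaps 10 other predicted genes. Of these, *Gm3696* was lower in every BORIS KO library, with 12.9, 13.1 and 11.7 CPM in WT and 7.62, 2.64 and 1.19 CPM in BORIS KO, and did not pass the test (adjusted p = 0.219, and 0.112 in the paired fit). *Gm2897* (chr14:3049285-3076840, plus strand) had 28.4, 22.7 and 19 CPM in WT and 5.01, 2.25 and 3.51 CPM in BORIS KO, a log2 difference of -2.67 ± 0.31 (edgeR adjusted p = 0.0347). *Gm5458* (chr14:20413361-20421803, minus strand) had 64.6, 82.9 and 76.6 CPM in WT and 25.3, 16.4 and 15.1 CPM in BORIS KO, a log2 difference of -1.97 ± 0.23 (edgeR adjusted p = 0.0358). Neither gene had overlapping groups. With all 4 genotypes in the fit, *Gm5458* did not pass (adjusted p = 0.171).

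The long noncoding RNA *4933406F09Rik* (chr14:8244987-8255199, plus strand) had 145, 220 and 186 CPM in WT. It reached 36.2, 37.1 and 42.1 CPM in BORIS KO, so the groups stood well apart (log2 -2.25 ± 0.20, edgeR adjusted p = 0.00891). *Serpine3*, a serine protease inhibitor gene farther along chromosome 14 (chr14:63282504-63311080, plus strand), was nearly absent from BORIS KO. It had 126, 72 and 36 counts in WT and 2, 2 and 1 counts in BORIS KO. The WT level was 49.1 times that of BORIS KO, with an exact interval of 20.8 to 153 for counting error only, and the test passed (edgeR adjusted p = 0.00891). It overlaps *Ints6*, a gene on the other strand that had a mean of 150 CPM in WT and 135 CPM in BORIS KO (log2 -0.16, adjusted p = 0.754). The strand setting of the counting is not given in the sources used here, so reads of the shared stretch cannot be assigned to a strand.

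A pair of long noncoding RNAs on chromosome 5, *4933438B17Rik* and *4930572K03Rik*, with only *Gm33491* between them in RefSeq, both fell. *4933438B17Rik* had 9.99, 6.04 and 10 CPM in WT and 0.453, 0.853 and 1.08 CPM in BORIS KO (log2 -3.51 ± 0.38, edgeR adjusted p = 0.0259). *4930572K03Rik* had 14.5, 10.1 and 13.8 CPM in WT and 2.27, 2.87 and 3.13 CPM in BORIS KO (log2 -2.23 ± 0.24, edgeR adjusted p = 0.0259). In both, every BORIS KO library was below every WT library. *Ammecr1l* (mm9, chromosome 18, 31919534 to 31942381, plus strand), the paralog of the X-linked gene *Ammecr1*, fell from 110, 79 and 139 CPM to 29.7, 29.5 and 30.1 CPM (log2 -1.87 ± 0.22, edgeR adjusted p = 0.0347). The BORIS KO values were closely alike while the WT values spread over a wide range without reaching them.

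*Nid2* was the only gene of the 9 that rose. It encodes nidogen 2, a basement membrane protein that links laminin and collagen IV networks. *Nid2* (chr14:20570479-20631009, plus strand) had 10.4, 8.77 and 7.48 CPM in WT and 51.9, 39.3 and 39.2 CPM in BORIS KO. The groups did not overlap, and the level was 4.87-fold higher (log2 2.29 ± 0.20, edgeR adjusted p = 0.00891). Its last part overlaps *2700060E02Rik* on the other strand, which had a mean of 46.3 CPM in WT and 43.9 CPM in BORIS KO (adjusted p = 0.853). Within the same 1.22 Mb lie *Gm5458*, which fell, and *Ube2e2*, a ubiquitin-conjugating enzyme gene. *Ube2e2* had 3.15, 3.5 and 4.52 CPM in WT and 6.32, 9.23 and 8.37 CPM in BORIS KO. By edgeR it rose in the paired fit only (log2 1.09 ± 0.21, adjusted p = 0.0253, and 0.195 without the block). In whole testis, as in any bulk sample, fewer cells of a type and less RNA per cell cannot be told apart, and this holds for all genes below as well.

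**Figure D1:**
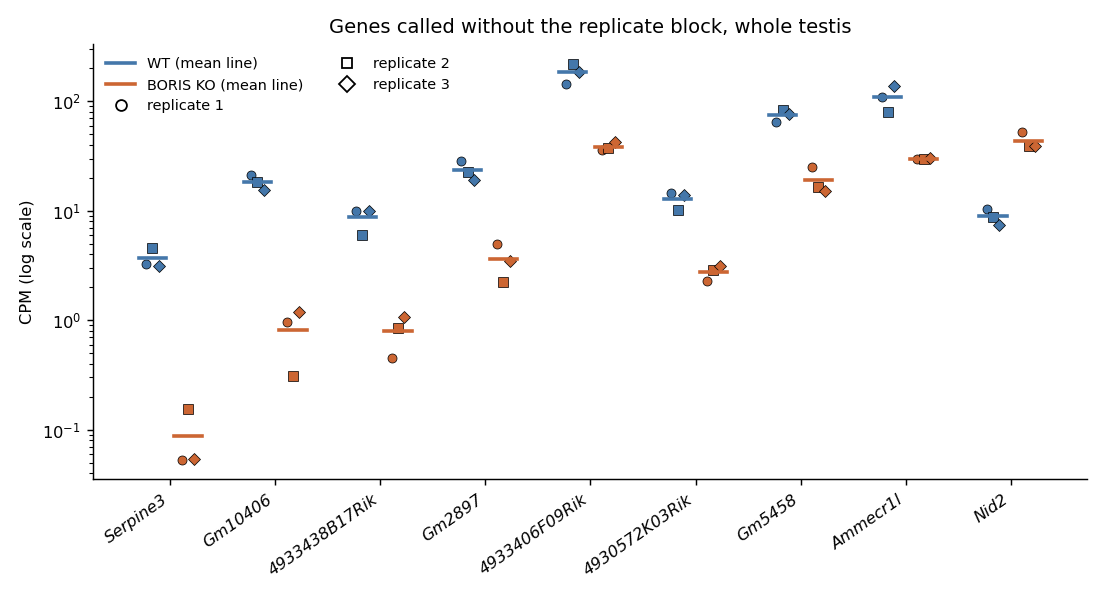
CPM of the 9 genes called without the block in each of the 6 whole testis libraries, on a log scale, with WT in blue, BORIS KO in orange, symbols for replicates and short lines for means. In all 9 genes the 3 BORIS KO points lie on one side of the 3 WT points, below them in 8 genes and above them in *Nid2*.

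The comparison of CM with CTCF HET asked whether these genes also differed with *Boris* in other whole testis libraries, where 2562 of 16531 tested genes passed (15.5%). All 9 genes were tested there, and all 9 passed with the same sign. *Serpine3* had 7.39, 4.32 and 2.29 CPM in CTCF HET and 0.05, 0.0647 and 0.0813 CPM in CM (edgeR adjusted p = 0.013). *Nid2* had 11.8, 13 and 9.37 CPM in CTCF HET and 102, 48.1 and 58.6 CPM in CM (log2 2.61 ± 0.34, adjusted p = 0.0195). *Ammecr1l* had 128, 142 and 116 CPM in CTCF HET and 47.7, 43.8 and 47.7 CPM in CM (log2 -1.47 ± 0.23, adjusted p = 0.0212). In these 3 genes the groups did not overlap. The difference was smaller for *Gm2897*, with 18.2, 28.1 and 13.6 CPM in CTCF HET and 7.8, 7.44 and 8.78 CPM in CM (log2 -1.32 ± 0.33, adjusted p = 0.032). A direct test of whether the effect of *Boris* loss depended on the *Ctcf* genotype called 0 of 17185 genes (0%) by edgeR, with 1713 genes at an unadjusted p below 0.05 and a smallest adjusted p of 0.473. With the block it called 4 genes, *4933402P03Rik*, *Odf3b*, *Sik1* and *Spata3*, all with a lower difference between CM and CTCF HET than between BORIS KO and WT, named here after their values were seen. None of the 9 genes was among these 4.

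Sorted cells differed from whole testis in part. In round spermatids, where 8658 of 15513 tested genes passed (55.8%), 8 of the 9 genes were tested and 5 passed with the same sign, *4933438B17Rik*, *4930572K03Rik*, *Ammecr1l*, *Gm5458* and *Nid2*. *Nid2* was higher there by a log2 difference of 1.54 ± 0.18 (edgeR adjusted p = 0.000142), and *Ammecr1l* lower by -1.35 ± 0.15 (adjusted p = 0.000117). *Gm2897* went the opposite way, at 0.525, 0.66 and 1.06 CPM in WT and 1.64, 1.76 and 1.32 CPM in BORIS KO (log2 1.09 ± 0.32, adjusted p = 0.0177), at levels far under those of whole testis. In spermatocytes, where 8207 of 14338 tested genes passed (57.2%), 7 of the 9 genes were tested, and *4933438B17Rik*, *Ammecr1l*, *Gm5458* and *Nid2* passed with the same sign and none with the opposite sign. *Gm5458* was lower by a log2 difference of -1.98 ± 0.15 in spermatocytes (adjusted p = 1.09e-05), close to its value of -1.97 in whole testis. With more than 55% of all tested genes called in either sorted cell type, a shared call carries less information there than in CM against CTCF HET.

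**Figure D2:**
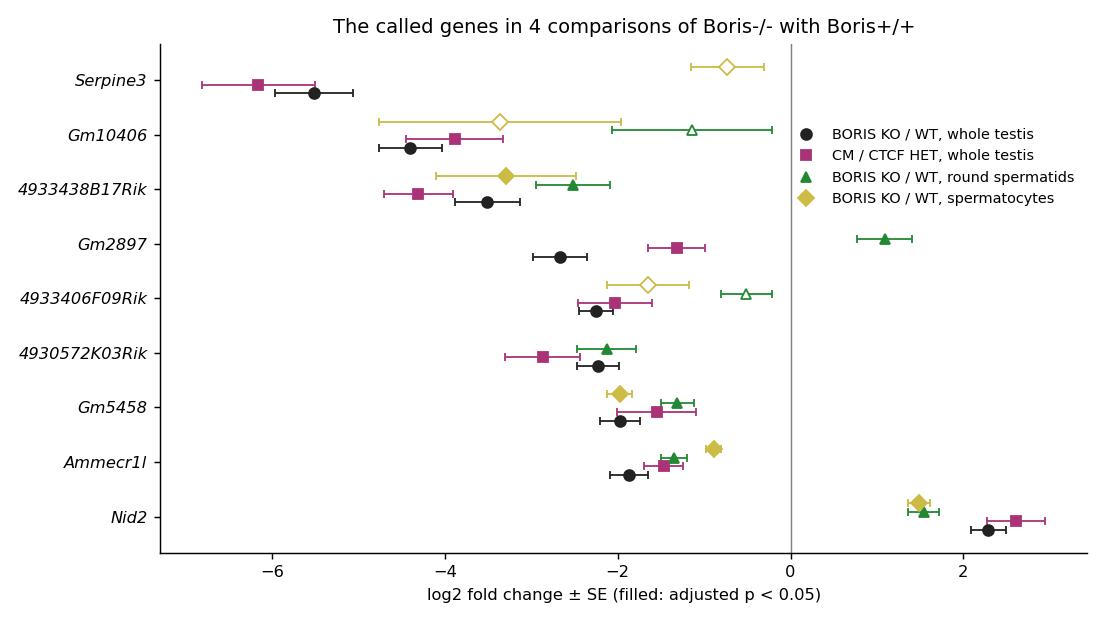
Log2 fold changes with their SE for the 9 genes in 4 comparisons of Boris-/- with Boris+/+ cells, with filled symbols at an adjusted p below 0.05 and no symbol where a gene was not tested. The whole testis symbols of both *Ctcf* genotypes lie on the same side of 0 for all 9 genes, and the round spermatid symbol of *Gm2897* lies on the other side.

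The paired fit, which sets libraries of the same replicate number against each other, added further genes. Differences of the 3 pairs were similar in some, such as *H2-Aa* (log2 1.97, 1.64 and 1.90). They were unequal in others, such as *Cyp2c55* (log2 1.88, 3.69 and 3.08). All values from here on that passed did so in the paired fit, and none of these genes passed by edgeR without the block unless stated. DESeq2, also without a block, called 331 of the 1077 genes of the paired fit. The lowest p-values among genes that fell included *Erp29*, an endoplasmic reticulum chaperone gene, with 232, 119 and 168 CPM in WT and 75.3, 52.2 and 46.5 CPM in BORIS KO (log2 -1.56 ± 0.14, edgeR adjusted p = 0.000721). The groups did not overlap. *Rprl3*, a ribonuclease P RNA-like gene, had 215 counts in WT and 5 in BORIS KO over 3 libraries each, a level 45.1 times higher in WT with an exact interval of 19 to 140 for counting error (adjusted p = 0.000484). *Hapln1*, which links hyaluronan to proteoglycans, had 2.03, 4.45 and 5.13 CPM in WT and 0.56, 0.62 and 0.702 CPM in BORIS KO (log2 -2.46 ± 0.33, adjusted p = 0.00503).

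Among genes that rose, *Sv2c*, encoding a synaptic vesicle glycoprotein, had 4.03, 2.67 and 1.83 CPM in WT and 16.9, 11 and 19 CPM in BORIS KO (log2 2.42 ± 0.27, edgeR adjusted p = 0.00312). *Cyp2c55*, a cytochrome P450 gene, had 0.936, 0.699 and 1.57 CPM in WT and 3.44, 9 and 13.3 CPM in BORIS KO (log2 2.78 ± 0.34, adjusted p = 0.00451). *Dock5*, encoding an exchange factor for Rac, had 28.6, 12.8 and 12.3 CPM in WT and 65.8, 40.7 and 49 CPM in BORIS KO (log2 1.60 ± 0.16, adjusted p = 0.00141). None of these 3 genes had overlapping groups. *Nmnat3*, encoding a mitochondrial enzyme of NAD synthesis, rose from 46.9, 18.7 and 49.2 CPM to 140, 70.3 and 101 CPM (log2 1.50 ± 0.17, adjusted p = 0.00303) but had a log2 difference of -0.17 between CM and CTCF HET (adjusted p = 0.695). Of the 273 genes past 2-fold in the paired fit, 242 had groups that did not overlap and 31 had groups that did.

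Of the 1077 genes of the paired fit, 1074 were tested in CM against CTCF HET. Their difference had the same sign in 1048 (97.6%), 466 passed there with the same sign, and 0 passed with the opposite sign (edgeR without a block). Of all tested genes 15.5% passed there. In round spermatids 977 were tested, of which 443 passed with the same sign and 140 with the opposite sign, where 55.8% of all tested genes passed. In spermatocytes 938 were tested, of which 359 and 156 passed in this way, where 57.2% of all tested genes passed. *Cyp2c55* was one of those with the opposite sign in both sorted cell types, with log2 differences of -1.79 ± 0.16 in round spermatids and -2.01 ± 0.07 in spermatocytes. RNA of whole testis was depleted of ribosomal RNA and that of sorted cells poly(A)-selected, so cell type and library method cannot be told apart in this contrast.

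**Figure D3:**
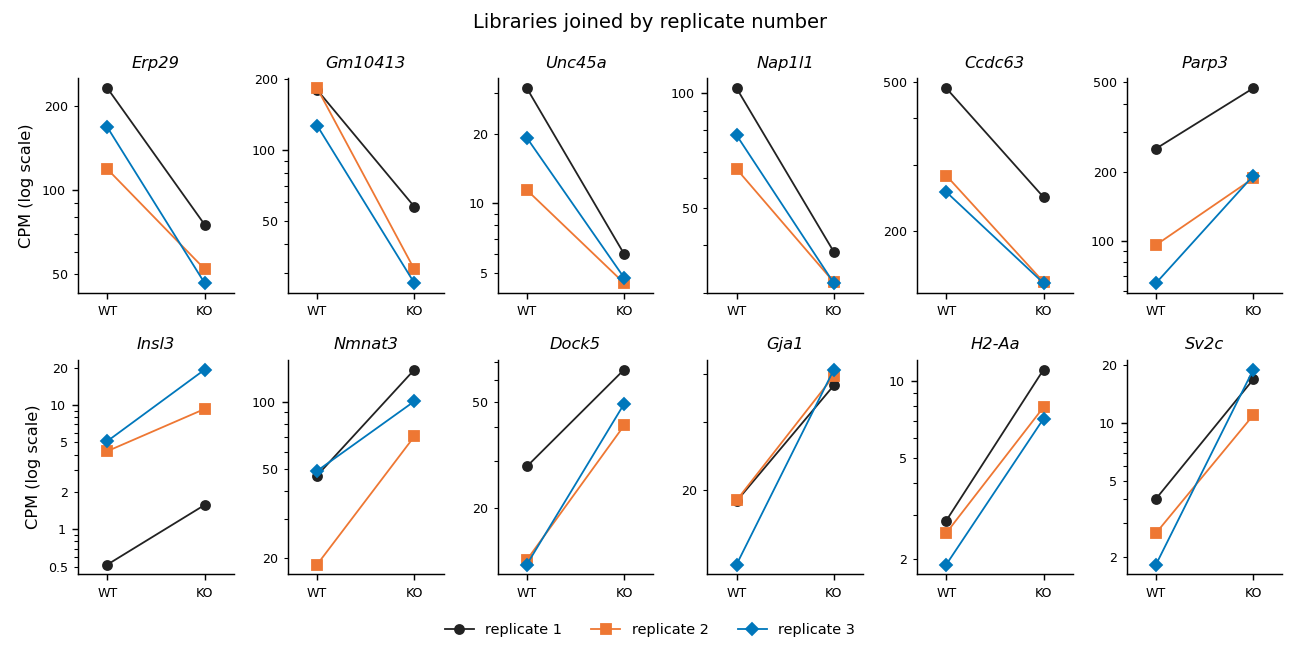
CPM on a log scale for 12 genes that passed in the paired fit, with a line joining the WT and the BORIS KO library of the same replicate number. In each panel the 3 lines run in the same direction. In *Unc45a*, *Parp3*, *Insl3*, *Nmnat3*, *Dock5* and *Sv2c* the starting levels of the replicates differ by more than 2-fold.

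The deposited BORIS peaks of WT testis were set against the genes' annotated starts (mm9). A BORIS peak lay within 1 kb of a start in 18% of the tested genes with a position, in 17.7% of those called in the paired fit, and in 1 of 7 called without the block, *Ammecr1l*, whose peak was 473 bases away. The shares were 20.2% for genes that rose and 15.5% for genes that fell in the paired fit. For CTCF peaks they were 34.1% over the tested genes, 39.6% for those that rose and 29.4% for those that fell. The share of called genes with a BORIS peak was thus near that of all tested genes.

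BORIS peaks at genes called in the paired fit differed in height, the pileup at the summit. The 151 bases centred on the summit are printed for 4 genes, in mm9 and on the plus strand, to show where the core letters AGNNGGC of the CTCF and BORIS motif, searched on both strands and in capitals where found, stand in tall and in low peaks. The windows are chr14:68552226-68552376 for *Dock5* (height 346), chr7:87487916-87488066 for *Hddc3* (height 385), chr7:87485146-87485296 for *Unc45a* (height 120) and chr10:110910782-110910932 for *Nap1l1* (height 36).
Dock5: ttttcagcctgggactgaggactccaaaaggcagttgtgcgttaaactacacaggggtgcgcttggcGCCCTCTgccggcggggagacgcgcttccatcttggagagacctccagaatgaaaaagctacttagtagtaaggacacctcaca
Hddc3: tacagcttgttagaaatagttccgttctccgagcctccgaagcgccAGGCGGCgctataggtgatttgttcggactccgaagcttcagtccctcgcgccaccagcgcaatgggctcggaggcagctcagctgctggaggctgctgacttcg
Unc45a: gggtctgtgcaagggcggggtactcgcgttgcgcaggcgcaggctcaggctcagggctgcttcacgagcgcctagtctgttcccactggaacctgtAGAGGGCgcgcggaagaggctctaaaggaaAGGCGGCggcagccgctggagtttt
Nap1l1: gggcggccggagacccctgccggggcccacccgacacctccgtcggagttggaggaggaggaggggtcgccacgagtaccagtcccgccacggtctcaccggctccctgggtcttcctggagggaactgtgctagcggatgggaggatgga
These letters occurred once at *Dock5* and *Hddc3*, 2 times at *Unc45a* and not at *Nap1l1*, and they occurred in 6051 of all 7652 BORIS peak windows of this length (79.1%). *Dock5* and *Hddc3* rose, and *Unc45a* and *Nap1l1* fell, so peaks stood at genes of both directions.

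*Unc45a*, a myosin chaperone gene, and *Hddc3*, a metal-dependent phosphohydrolase gene, are neighbours on chromosome 7 with starts facing away from each other, and they moved in opposite directions. *Unc45a* had 31.5, 11.4 and 19.2 CPM in WT and 6.02, 4.5 and 4.75 CPM in BORIS KO (log2 -1.96 ± 0.22, edgeR adjusted p = 0.00198). *Hddc3* had 2.78, 6.99 and 3.91 CPM in WT and 7.38, 18.2 and 15.3 CPM in BORIS KO (log2 1.57 ± 0.20, adjusted p = 0.00422). Neither had overlapping groups. *Nap1l1*, a histone chaperone gene, fell from 103, 63.3 and 77.6 CPM to 38.4, 32 and 31.8 CPM (log2 -1.23 ± 0.13, adjusted p = 0.00173). It was also lower in round spermatids (log2 -1.03, adjusted p = 4.88e-05) and in spermatocytes (log2 -0.52, adjusted p = 9.13e-05).

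The start of chromosome 14 had the highest share of called members among the lists. Its window was chosen with earlier results of these data known, so these counts are not independent evidence. In its first 8 Mb the table holds 15 genes, of which 13 were tested. All 13 had a lower level in BORIS KO, and 8 passed (61.5%, against 3.57% called lower over all genes). In 11 the groups did not overlap, against 10.0% of all tested genes with BORIS KO lower in this way. The median log2 difference was -1.88 against 0.03 over all tested genes. Leaving out single libraries gave 7 to 11 called members, DESeq2 gave 10, and the paired fit over all 4 genotypes 5, all lower. *Gm10413* fell from 180, 183 and 127 CPM to 57.4, 31.1 and 27.2 CPM (log2 -2.13 ± 0.17, edgeR adjusted p = 0.000913, and 0.0932 without the block). *Gm3002* fell from 34.5, 25.7 and 26 CPM to 13.2, 7.29 and 8.26 CPM (log2 -1.61 ± 0.16, adjusted p = 0.000921). In *Gm3264* the WT libraries disagreed, with 6.37, 41.7 and 37.7 CPM against 7.12, 6.05 and 11.4 CPM in BORIS KO, and the gene did not pass (adjusted p = 0.329). In CM against CTCF HET 7 of 12 tested members passed, all lower, with a median of -1.40. Reads of resembling copies may be shared, which was not tested, so members of this list may not be independent measurements.

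Over the chromosomes, genes past 2-fold in the paired fit made up 4.04% of the tested genes of chromosome 14, 23 of 569. They made up 0.734% to 2.99% on the other chromosomes with 100 or more tested genes, and 1.67% of all tested genes. Of the 59 lower genes with a position, 14 lay on chromosome 14. No run of 3 or more called genes within 1 Mb of each other was found without the block, and 13 were found in the paired fit past 2-fold. Each run was built from called genes and starts and ends at one. A raised share of called genes inside it thus follows from how it was chosen and is not evidence. On chromosome 14, 4 of 5 tested genes between 3049285 and 3936396 fell (*Gm2897*, *D830030K20Rik*, *Gm8348* and *Gm3002*), and 3 of 6 between 6956220 and 8255199 (*Gm10413*, *Gm10406* and *4933406F09Rik*). On chromosome 17, 7 of 81 tested genes across the major histocompatibility complex were called, 6 of them higher. On chromosome 13, 4 of 14 in a histone cluster rose. On chromosome 8, *Defb11* and *Defb15* fell while *AI316807* and *Plat* rose. *Ctcfl* itself is on chromosome 2, where 11 of 1274 genes (0.863%) passed.

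**Figure D4:**
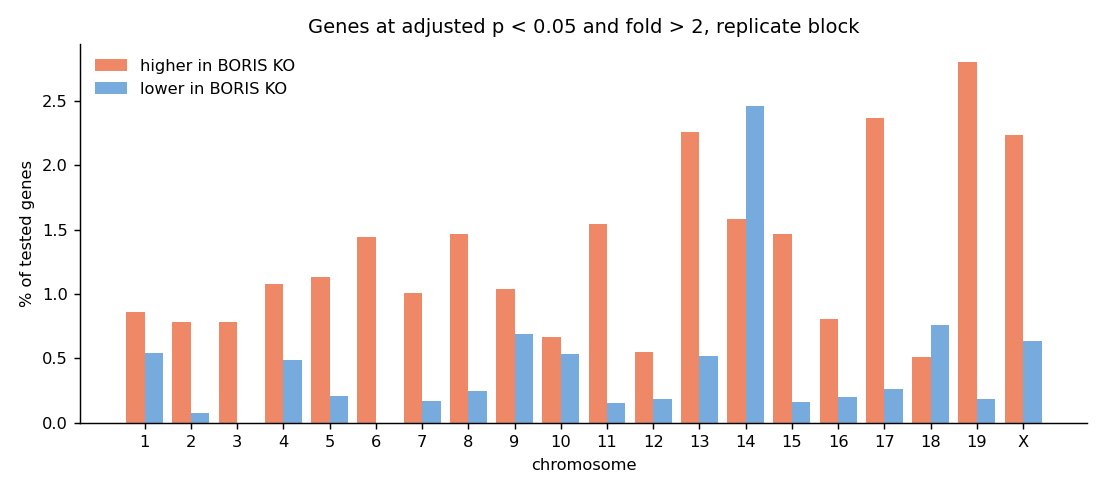
Percentage of the tested genes of each chromosome that passed in the paired fit with a fold above 2, higher in BORIS KO in orange and lower in blue. Chromosome 14 has the tallest blue bar at 2.46%, from 14 of 569 genes.

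Genes within 5 Mb of *Ctcfl* were taken as a list because *Ctcfl* is the deleted gene. Of 87 genes 54 were tested, and 3 rose and 4 fell (13% against 6.59% over all genes), with a median log2 difference of 0.20. *Spo11*, which encodes the enzyme that makes the double-strand breaks of meiosis, lies there and fell from 58.1, 68.5 and 61 CPM to 37, 42.6 and 36.5 CPM (log2 -0.69 ± 0.12, edgeR adjusted p = 0.017). *Zfp217*, a zinc finger gene, fell from 457, 373 and 339 CPM to 305, 208 and 204 CPM (log2 -0.72 ± 0.11, adjusted p = 0.00926). *Gnas*, an imprinted gene encoding a G protein subunit, rose from 59.9, 46.8 and 52 CPM to 78.3, 79.7 and 92.6 CPM (log2 0.66 ± 0.13, adjusted p = 0.0279). Called members numbered 2 without WT replicate 3 and 7 without WT replicate 1, 2 by DESeq2 and 1 in the paired fit over all 4 genotypes.

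The antigen presentation genes had the highest share of called members among the lists other than proximal chromosome 14. Of 16 tested genes 7 rose and 0 fell, a share of 43.8% against the 6.59% called over all genes, with a median log2 difference of 0.88 against 0.03. Leaving out single libraries gave 4 (without WT replicate 3) to 7 members, DESeq2 gave 6, and the paired fit over all 4 genotypes 4, all higher. *H2-Aa*, a chain of the class II molecule, had 2.84, 2.54 and 1.91 CPM in WT and 11.1, 7.91 and 7.13 CPM in BORIS KO (log2 1.84 ± 0.22, edgeR adjusted p = 0.00292, and 0.0932 without the block). *Cd74*, the class II invariant chain, rose from 5.15, 7.76 and 3.39 CPM to 14.5, 16.9 and 15.3 CPM (log2 1.56 ± 0.22, adjusted p = 0.0062). *H2-K1*, a class I heavy chain, rose from 27.6, 32 and 28.9 CPM to 48.6, 66.2 and 62.6 CPM (log2 0.99 ± 0.13, adjusted p = 0.00422). In these 3 genes the groups did not overlap, and *H2-Eb1*, *H2-D1*, *H2-T23* and *Tap1* were the other genes that rose. Class II genes are normally expressed by macrophages and other immune cells rather than by germ cells. The summed level of the macrophage markers was 520 to 694 CPM in WT and 550 to 713 CPM in BORIS KO. Of these 1 of 13 rose (7.69% against 6.59% over all genes), the complement gene *C1qa*. Of these markers 12 had a positive log2 difference, with a median of 0.57. The number called was 5 without WT replicate 1, 4 without BORIS KO replicate 1 and 0 without any other library. Their part in the rise was not tested.

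Markers of somatic cells are given here because the preparation was meant to enrich germ cells. Of the 5 somatic lists, those of Sertoli and Leydig cells had higher sums in every BORIS KO library than in any WT library. The Sertoli cell markers summed to 402 to 613 CPM in WT and to 733 to 836 CPM in BORIS KO. Of these 4 of 17 rose (23.5% against 6.59% over all genes), *Gja1*, *Clu*, *Amh* and *Amhr2*, and the groups of *Amhr2* overlapped. *Gja1*, the gap junction protein connexin 43, rose from 18.7, 18.8 and 12.8 CPM to 37.4, 39.6 and 41.1 CPM (log2 1.24 ± 0.16, edgeR adjusted p = 0.00422). The Leydig cell markers summed to 524 to 789 CPM in WT and to 909 to 1690 CPM in BORIS KO. Of these 2 of 13 rose (15.4% against 6.59% over all genes), *Insl3* and *Fdxr*, and the groups of both overlapped. In CM against CTCF HET *Insl3* had a log2 difference of -0.48 and *Fdxr* of 1.21, and neither passed (edgeR adjusted p = 0.78 and 0.213). *Cyp17a1*, the steroid hydroxylase that made up much of this sum, had 239, 285 and 219 CPM in WT and 347, 874 and 736 CPM in BORIS KO and did not pass with edgeR in the paired fit (adjusted p = 0.0663). DESeq2 called it (log2 1.35, adjusted p = 0.00451), as did 2 of the 6 paired fits that left out a library. Leydig markers called numbered 8 without BORIS KO replicate 1 and 9 without WT replicate 1, against 1 or 2 without any other library, and Sertoli markers 4 without either of these libraries and 2 without any other. In the paired fit over all 4 genotypes 0 of either list were called. The peritubular markers summed to 373 to 408 CPM in WT and to 234 to 258 CPM in BORIS KO, and most of both sums came from 1 gene, *Actg2*. *Actg2*, the enteric smooth muscle actin, fell from 286, 305 and 331 CPM to 160, 147 and 177 CPM (log2 -0.93 ± 0.11, adjusted p = 0.00292). No other of these 12 genes was called (8.33% against 6.59% over all genes). Of the 12 genes 9 had a positive log2 difference, and their median was 0.23. In sorted WT round spermatids *Actg2* had 37.6, 48.4 and 46.8 CPM. Of 11 endothelial markers 1 fell (9.09% against 6.59% over all genes), while their median was 0.50. It was the protocadherin *Pcdh12*, from 5.1, 5.15 and 7.65 CPM to 1.33, 1.78 and 1.89 CPM (log2 -1.84 ± 0.25, adjusted p = 0.00499). The endothelial sums overlapped, at 52.5 to 70.8 CPM in WT and 60.2 to 66.6 CPM in BORIS KO.

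Basement membrane and matrix genes, made largely by Sertoli and peritubular cells, include *Nid2*. Of 20 genes 6 rose, *Nid2* among them, and 1 fell (35% called against 6.59% over all genes), with a median of 0.56. The called members were 2 in the paired fit over all 4 genotypes, 4 without WT replicate 2, without WT replicate 3, without BORIS KO replicate 2 or without BORIS KO replicate 3, 14 without BORIS KO replicate 1 and 16 without WT replicate 1. *Agrn*, encoding the heparan sulfate proteoglycan agrin, rose from 7.67, 6.49 and 7.3 CPM to 15.5, 13.3 and 17.3 CPM (log2 1.09 ± 0.17, edgeR adjusted p = 0.0101). *Lama1*, *Hspg2*, *Col3a1* and *Sparc* were the remaining genes that rose, and *Hapln1* fell as given above. In *Nid2* the difference was 4.87-fold, while the Sertoli marker list had a median log2 difference of 0.49, and the part of cell composition in either was not tested.

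Fatty acid and sterol synthesis genes had 7 that rose and 1 that fell, *Sqle*, among 21 tested (38.1% called against 6.59% over all genes). Their median was 0.55. The called members were 3 without WT replicate 3 and 9 without WT replicate 1 or BORIS KO replicate 1, and 0 in the paired fit over all 4 genotypes. *Fads2* and *Fads1*, neighbouring genes for the delta-6 and delta-5 desaturases of polyunsaturated fatty acids, both rose. *Fads2* had 77.9, 54.2 and 47.2 CPM in WT and 118, 140 and 116 CPM in BORIS KO (log2 1.08 ± 0.16, edgeR adjusted p = 0.0104). *Fads1* had 42.6, 37.3 and 31.4 CPM in WT and 66.1, 100 and 90.8 CPM in BORIS KO (log2 1.19 ± 0.18, adjusted p = 0.0161). Their groups did not overlap. *Thrsp*, a regulator of lipid synthesis, was low, with 0.702, 0.699 and 0.783 CPM in WT and 1.68, 4.42 and 3.56 CPM in BORIS KO (log2 1.96 ± 0.35, adjusted p = 0.0187). Both desaturase genes also passed in CM against CTCF HET, with log2 differences of 2.27 and 2.13.

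Of 68 histone genes 37 passed the filter on low counts, of which 10 rose and 0 fell (27% against 6.59% over all genes), with a median of 0.70. Transcripts of the replication-dependent histone genes end in a stem-loop rather than a poly(A) tail and are held in RNA depleted of ribosomal RNA. *Hist1h1a*, a linker histone gene, rose from 12.8, 10.3 and 11.8 CPM to 25.2, 39.3 and 40.1 CPM (log2 1.54 ± 0.19, edgeR adjusted p = 0.0055). *Hist3h2ba* had 2.11, 1.65 and 1.39 CPM in WT and 5.46, 5.43 and 5.45 CPM in BORIS KO (log2 1.64 ± 0.25, adjusted p = 0.00927). The groups were separate in both. *Hist1h2ba*, the testis H2B variant, had 73.8, 127 and 189 CPM in WT and 148, 285 and 241 CPM in BORIS KO (log2 0.84 ± 0.16, adjusted p = 0.0283), and its groups overlapped. The called members numbered 3 without WT replicate 2 or BORIS KO replicate 2 and 13 without WT replicate 1, and 2 in the paired fit over all 4 genotypes.

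**Figure D5:**
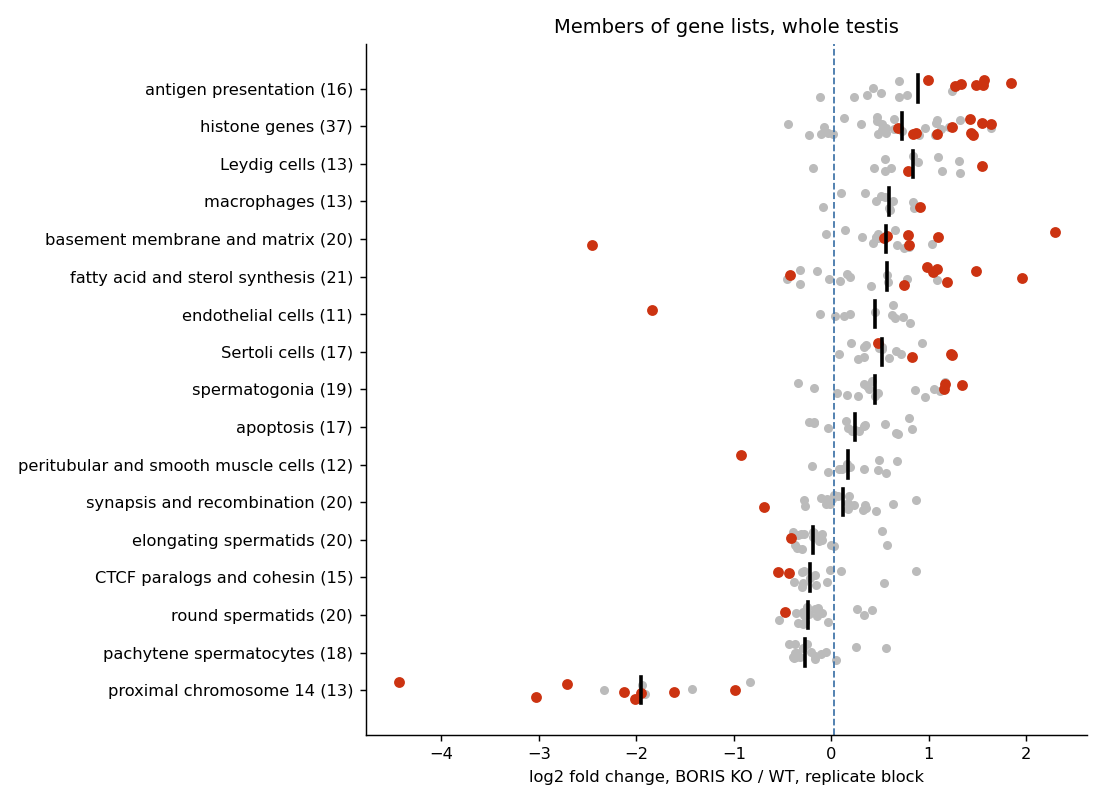
Log2 fold change of each tested member in the paired fit, one line per gene list with the number tested in brackets, red where the adjusted p was below 0.05, a black bar at the list median and a dashed line at the median of all genes. The list of proximal chromosome 14 lies wholly left of 0, and the antigen presentation and histone lists have their medians right of the dashed line.

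Few markers of the germ cell stages passed the test. Of 19 spermatogonial markers 3 rose, *Zbtb16*, *Stra8* and *Ccnd2* (15.8% against 6.59% over all genes), with a median of 0.45. Of these markers 0 to 2 were called on leaving out single libraries, and 0 in the paired fit over all 4 genotypes. *Zbtb16*, encoding the PLZF factor of undifferentiated spermatogonia, had 2.34, 3.05 and 1.83 CPM in WT and 4.85, 5.74 and 8.53 CPM in BORIS KO (log2 1.34 ± 0.28, edgeR adjusted p = 0.0329). Of 20 synapsis and recombination genes only *Spo11* fell (5% against 6.59% over all genes), with a median of 0.09. Of 18 pachytene markers 0 passed by edgeR in the paired fit, where 11 had an unadjusted p below 0.05, and 0 by DESeq2. Their median was -0.25, and under RLE scaling with the block 3 of them fell. Of 20 round spermatid markers 1 fell, *Zpbp2*, with a median of -0.26, and of 20 elongating spermatid markers 1 fell, *Odf2*, with a median of -0.17. The share was 5% in each list, against 6.59% over all genes. Under RLE scaling with the block 2 and 4 of these markers fell. The elongating spermatid markers summed to 39573 to 50018 CPM in WT and to 31981 to 47773 CPM in BORIS KO, ranges that overlap. Of 15 tested cohesin genes and CTCF paralogs 2 fell (13.3% against 6.59% over all genes), with a median of -0.22. They were the meiotic cohesin *Smc1b* (log2 -0.55 ± 0.13, adjusted p = 0.0386) and the cohesin release factor *Wapal* (log2 -0.44 ± 0.11, adjusted p = 0.0432). The number called was 1 without WT replicate 1 or BORIS KO replicate 1, and 0 without any other library, by DESeq2, or in the paired fit over all 4 genotypes. Of 17 apoptosis genes 0 passed by edgeR in the paired fit, where 2 had an unadjusted p below 0.05, and 0 by DESeq2, with a median of 0.23.

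A list of 18 genes was taken from the text and the supplementary tables of the study, without covering all genes named there. They were chosen with results of these samples in view, so their count is not independent evidence. Of these 3 rose (*Fads1*, *Fads2* and *Ankrd52*) and 3 fell (*Spo11*, *Mfi2* and *Prkar2a*), with a median of -0.10. The share called was 33.3%, against 6.59% over all genes. The called members were 3 without WT replicate 3, 4 without any other library and by DESeq2, and 0 in the paired fit over all 4 genotypes. *Prkar2a*, a regulatory subunit of protein kinase A, fell from 604, 524 and 546 CPM to 391, 321 and 438 CPM (log2 -0.55 ± 0.11, edgeR adjusted p = 0.0313). *Kit*, the receptor of stem cell factor, had 28.5, 33.9 and 15.8 CPM in WT and 43.6, 47.6 and 70.6 CPM in BORIS KO and did not pass (adjusted p = 0.203). *Gal3st1*, the sulfotransferase that makes seminolipid, had 2.03, 1.21 and 1.3 CPM in WT and 0.56, 0.853 and 0.54 CPM in BORIS KO and did not pass (adjusted p = 0.0607). *Prss50*, a testis serine protease gene, had 8.09, 4.77 and 7.48 CPM in WT and 4.05, 4.19 and 6.48 CPM in BORIS KO, with overlapping groups (adjusted p = 0.18).

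The beta-defensins, small antimicrobial peptides that coat sperm in the epididymis, moved in both directions at low counts. Of 44 genes 8 were tested, of which 2 fell and 1 rose (37.5% called against 6.59% over all genes). These calls were made in each of the 6 paired fits that left out a library. *Defb11* had 51, 33 and 8 counts in WT and 0, 1 and 1 counts in BORIS KO, a WT level 48.3 times that of BORIS KO with an exact interval of 13 to 405. *Defb15* had 70, 29 and 28 counts in WT and 3, 0 and 4 counts in BORIS KO, a ratio of 19 with an interval of 8.98 to 48.3. Both intervals cover counting error only, and both genes passed (edgeR adjusted p = 0.00455 and 0.00318). *Defb14* rose from 1.48, 2.1 and 2.43 CPM to 5.44, 10.5 and 7.07 CPM (log2 1.92 ± 0.24, adjusted p = 0.00422). *Defb11* and *Defb15* also passed in CM against CTCF HET with the same sign (adjusted p = 0.02 and 0.0225), and *Defb14* did not (adjusted p = 0.104).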

How the data were processed

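The deposited whole testis table holds raw counts per gene that the authors made from single-end Ion Proton reads aligned to mm9 with TopHat2 and Bowtie2; the counting tool, annotation and strand setting are not given in the sources used here. Sorted-cell counts came from STAR alignments. The deposited peak lists give peak height as a signal (pileup) per peak. Of 23284 gene rows, 25 carry dates in place of symbols, 21872 were matched to an mm9 annotation by symbol and 129 by synonym.

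Counts were fitted with edgeR 4.0.16 (R 4.3.3; filterByExpr, minimum count 10; TMM; quasi-likelihood F test; Benjamini-Hochberg over all tested genes, called at an adjusted p of 0.05), without a block as in the methods of the study, which used DESeq2. Same-number libraries correlated in their deviations from the group mean at 0.6, 0.176 and 0.239, so the replicate number was also fitted as a block; BORIS KO 2 correlated more with WT 3 (0.379) and BORIS KO 3 with WT 2 (0.264). No label says what a number marks. The replicates are separate preparations of pooled mice. No 2 replicates agreed within counting error. Alternatives were DESeq2 1.42.0, RLE scaling, no filter, all 4 genotypes in the fit and each library left out. The scripts were tested on simulated data. Named genes were 18 taken from the study, the 12 smallest p-values per direction in each fit, up to 4 called members of each list, members of runs, and up to 6 with a BORIS peak; 1 gene is not reported here. Genes, lists and the threshold were chosen with earlier results of these data known.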

Additional observations from a re-analysis of the deposited data

Results flagged for a closer look

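For 11 of the named genes the libraries of whole testis did not overlap and those of a sorted cell type did not overlap in the opposite direction. These differences between cell preparations were not tested, and library method differed with cell type. Separate groups do not mean that a gene passed in the sorted cells. In spermatocytes, with 2 WT and 3 BORIS KO libraries, they are a weak criterion. The call counts above hold further genes of opposite sign that are not named here.

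*Cyp2c55* rose in whole testis in the paired fit (log2 2.78) and was lower in round spermatids (log2 -1.79, from 19.3, 24.9 and 24.3 CPM to 7.34, 6.76 and 5.61 CPM) and in spermatocytes (log2 -2.01). *Gm2897* fell in whole testis (log2 -2.67) and was higher in round spermatids (log2 1.09). *Sv2c* rose in whole testis (log2 2.42) and was lower in round spermatids (log2 -0.70). *Mfi2* fell in whole testis (log2 -0.70) and was higher in round spermatids (log2 0.50) and in spermatocytes (log2 0.29).

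In spermatocytes alone, *Stra8*, a gene of entry into meiosis, had a log2 difference of -1.01, at levels under 0.5 CPM. *H2-Eb1* and *Zbtb16* had log2 differences of -0.37 and -0.30 there, all against a rise in whole testis. *H2-Eb1* did not pass in spermatocytes (edgeR adjusted p = 0.399), where its mean was 0.238 CPM in WT and 0.183 CPM in BORIS KO. *Actg2* and the coiled-coil gene *Ccdc63* had 0.32 and 0.75 in spermatocytes (edgeR adjusted p = 0.168 and 0.0242), against a fall in whole testis. The spermatocyte mean of *Actg2* was 0.96 CPM in WT and 1.2 CPM in BORIS KO. *Kit* and *Tcp11* did not pass in whole testis in the paired fit. *Kit* had a log2 difference of -1.37 in spermatocytes, at low levels of 0.636 and 0.715 CPM in WT and 0.252, 0.266 and 0.263 CPM in BORIS KO. *Tcp11* had 1.20 in round spermatids and 0.54 in spermatocytes.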

How the results depend on the processing

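The 9 calls (1 higher, 8 lower) became 1077 (493 and 584) with the replicate block and 386 (227 and 159) by DESeq2. Without the low-count filter there were 20 (3 and 17), and with all 4 genotypes in the fit 12 (2 and 10). At an adjusted p of 0.001 and fold above 2, the thresholds of the study, 0 passed in either direction by edgeR without the block, 11 with it and 51 by DESeq2. Leaving out a library gave 0 to 44 calls, 0 to 31 higher and 0 to 17 lower. Of settings chosen after seeing the data, the block with all 4 genotypes gave 75 calls (29 and 46), the block with RLE scaling 1592 (585 and 1007), and the block with numbers 2 and 3 joined 2000 (964 and 1036). The interaction of *Boris* with *Ctcf* gave 0 calls, and 4 with the block, a fit also chosen after seeing the data. The cause of these differences was not tested. In these settings 0 of 96 named genes called in either fit changed sign, and 6 of 17 called in neither did. The block raised 87 named genes past the threshold and lost 0. Many named genes were chosen because they were called in these fits, and the settings reuse the same libraries. These counts of named genes are thus not independent evidence. The 9 calls in CM against CTCF HET held with the block. Genes with few counts, *Serpine3*, *Rprl3*, *Defb11* and *Defb15*, have wide intervals.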
